A study of Mus musculus with 31 samples.

Results

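Both arms of 3 microRNA hairpins, mmu-miR-340, mmu-miR-708 and mmu-miR-22, make up the 6 mature microRNAs described here, out of 1966 counted in 31 libraries of mouse right hippocampus. They were chosen by their read counts in the KO-water libraries: there, the 5p and 3p arms of miR-340 and of miR-708 differed in opposite directions between libraries, while the arms of miR-22 moved together. Values of the KO-water libraries are therefore a description without a test, and tests were run only on the 25 libraries outside that group.

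The mice were C57Bl/6 J, either wildtype (WT) or knockout (KO) for 5-HTT, the transporter that clears serotonin from the synapse. They received water, exercise or corticosterone, the main glucocorticoid of rodents, and the design text gives 4 weeks for the treatments. There were 7 WT-water, 5 WT-exercise and 6 WT-corticosterone libraries, and on the knockout side 6 from KO-water, 5 from KO-exercise and 2 from KO-corticosterone. Each library is named a biological replicate in the labels, with no statement on litters or cages, and age, sex and the design of the knockout allele are not given in the sources used here. In bulk tissue, fewer cells of a type and less RNA per cell cannot be told apart.

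Library totals ranged from 1011285 to 4052174 counts on mature microRNAs. The neuron-enriched microRNAs miR-124-3p, miR-9-5p, miR-128-3p and miR-138-5p together held between 302070 and 422701 CPM (read counts scaled to a common library size by TMM over all 31 libraries) in every library. The serotonin transporter mRNA is not among the features counted, and the genotype of a library could not be checked from these counts. Treated groups and KO-water held libraries that stood far apart from each other within 1 group, whereas the 7 WT-water libraries lay close together, and this spread is given beside each result.

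A microRNA gene is transcribed into a precursor that folds into a hairpin. Drosha and Dicer cut it to a duplex of a 5p and a 3p strand, and usually 1 strand is kept in an Argonaute protein while the other is degraded. The kept strand finds messenger RNAs mainly through its seed, bases 2 to 8. Because both arms come from 1 transcript, a change in transcription alone moves them together, while the ratio of the arms within a library does not depend on how libraries are scaled to each other.

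The mature sequences show that each arm carries a seed of its own, so the balance of the arms sets how much of each seed the hairpin yields. They are RefSeq sequences of build GRCm38.p6, all 6 members were found there, and capitals mark the seed:

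mmu-miR-340-5p: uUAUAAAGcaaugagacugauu

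mmu-miR-340-3p: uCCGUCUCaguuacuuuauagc

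mmu-miR-708-5p: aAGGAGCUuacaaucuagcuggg

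mmu-miR-708-3p: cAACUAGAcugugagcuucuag

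mmu-miR-22-5p: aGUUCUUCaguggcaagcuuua

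mmu-miR-22-3p: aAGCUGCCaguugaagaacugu

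No seed was shared between members. GC content was lowest in miR-340-5p at 27.3%, was 40.9% in miR-340-3p and miR-22-5p, 45.5% in miR-708-3p and miR-22-3p, and 47.8% in miR-708-5p. Of all counted microRNAs with a RefSeq sequence, 1 other had the seed of a member: miR-28a-5p has that of miR-708-5p, and is shown to let the remaining bases be compared.

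mmu-miR-28a-5p: aAGGAGCUcacagucuauugag

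The hairpins of miR-340 and miR-22 follow with the mature arms in capitals, the 5p arm first.

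Mir340: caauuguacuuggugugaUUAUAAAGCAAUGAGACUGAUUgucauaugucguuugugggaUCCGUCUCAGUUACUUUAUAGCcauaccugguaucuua

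Mir22: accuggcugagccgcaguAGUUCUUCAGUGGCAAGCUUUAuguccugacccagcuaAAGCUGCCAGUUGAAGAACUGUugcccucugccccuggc

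All 3 hairpins lie on the plus strand of GRCm38 at a single listed locus. The arms of miR-340 span chr11:50069720-50069783, inside an intron of Rnf130, which encodes a RING finger protein. Those of miR-708 span chr7:96249450-96249517, inside an intron of Tenm4, which encodes a teneurin expressed in neurons. The arms of miR-22 span chr11:75463734-75463793, inside an exon of its noncoding host gene Mir22hg and an exon of 1 transcript of Tlcd2. Thus miR-340 and miR-708 sit in introns of protein-coding genes of the same strand, and miR-22 in an exon of a host transcript.

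All 6 members were counted in every library, from a lowest count of 17 (miR-708-3p) to a highest of 11976 (miR-22-3p). Across the 31 libraries miR-708-5p had the highest mean level, at 2871 CPM, followed by miR-22-3p at 1598 CPM, miR-340-5p at 557 CPM, miR-22-5p at 347 CPM, miR-340-3p at 224 CPM and miR-708-3p at 36.2 CPM. The highest library exceeded the lowest by 4.68-fold (miR-708-5p) to 7.06-fold (miR-22-5p).

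miR-340-5p was at 580 ± 102.8 CPM (SD, n = 7) in WT-water, 582 ± 177.8 (n = 5) in WT-exercise, 630 ± 230 (n = 6) in WT-corticosterone, 596 ± 134 (n = 5) in KO-exercise, 589 ± 265 (n = 2) in KO-corticosterone and 395.6 ± 224 (n = 6) in KO-water. Every group mean but that of KO-water lay within 1 SD of the others. Its partner miR-340-3p was at 137 ± 26.7 CPM in WT-water, 264 ± 148 in WT-exercise, 231 ± 88.7 in WT-corticosterone, 248 ± 74.4 in KO-exercise, 197 ± 15.6 in KO-corticosterone and 275 ± 135 in KO-water. WT-water had the lowest mean of this arm, and the ranges of the other groups overlapped.

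miR-708-5p, the arm that makes up nearly all of the mature miR-708, was at 1706 ± 203 CPM in WT-water, 3286 ± 1300 in WT-exercise, 2996 ± 1059 in WT-corticosterone, 3016 ± 863 in KO-exercise, 2846 ± 598 in KO-corticosterone and 3647 ± 1905 in KO-water. miR-708-3p was at 57.7 ± 8.76 CPM in WT-water, 34.5 ± 27.4 in WT-exercise, 26.6 ± 12.3 in WT-corticosterone, 27.9 ± 4.92 in KO-exercise, 24.5 ± 1.71 in KO-corticosterone and 33.0 ± 20.4 in KO-water. WT-water had the lowest mean of the 5p arm and the highest mean of the 3p arm, while among the other 5 groups KO-corticosterone had the lowest mean of both arms.

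miR-22-3p, its hairpin's main arm in brain, was at 2438 ± 279 CPM in WT-water, 1591 ± 1183 in WT-exercise, 1089 ± 657 in WT-corticosterone, 1029 ± 319 in KO-exercise, 862 ± 195.98 in KO-corticosterone and 1851 ± 1213 in KO-water. miR-22-5p was at 558 ± 63.1 CPM in WT-water, 261 ± 167 in WT-exercise, 254 ± 141 in WT-corticosterone, 243 ± 73.0 in KO-exercise, 199 ± 42.4 in KO-corticosterone and 401 ± 235 in KO-water. Both arms had their highest mean in WT-water and their next highest in KO-water.

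**Figure D1:**
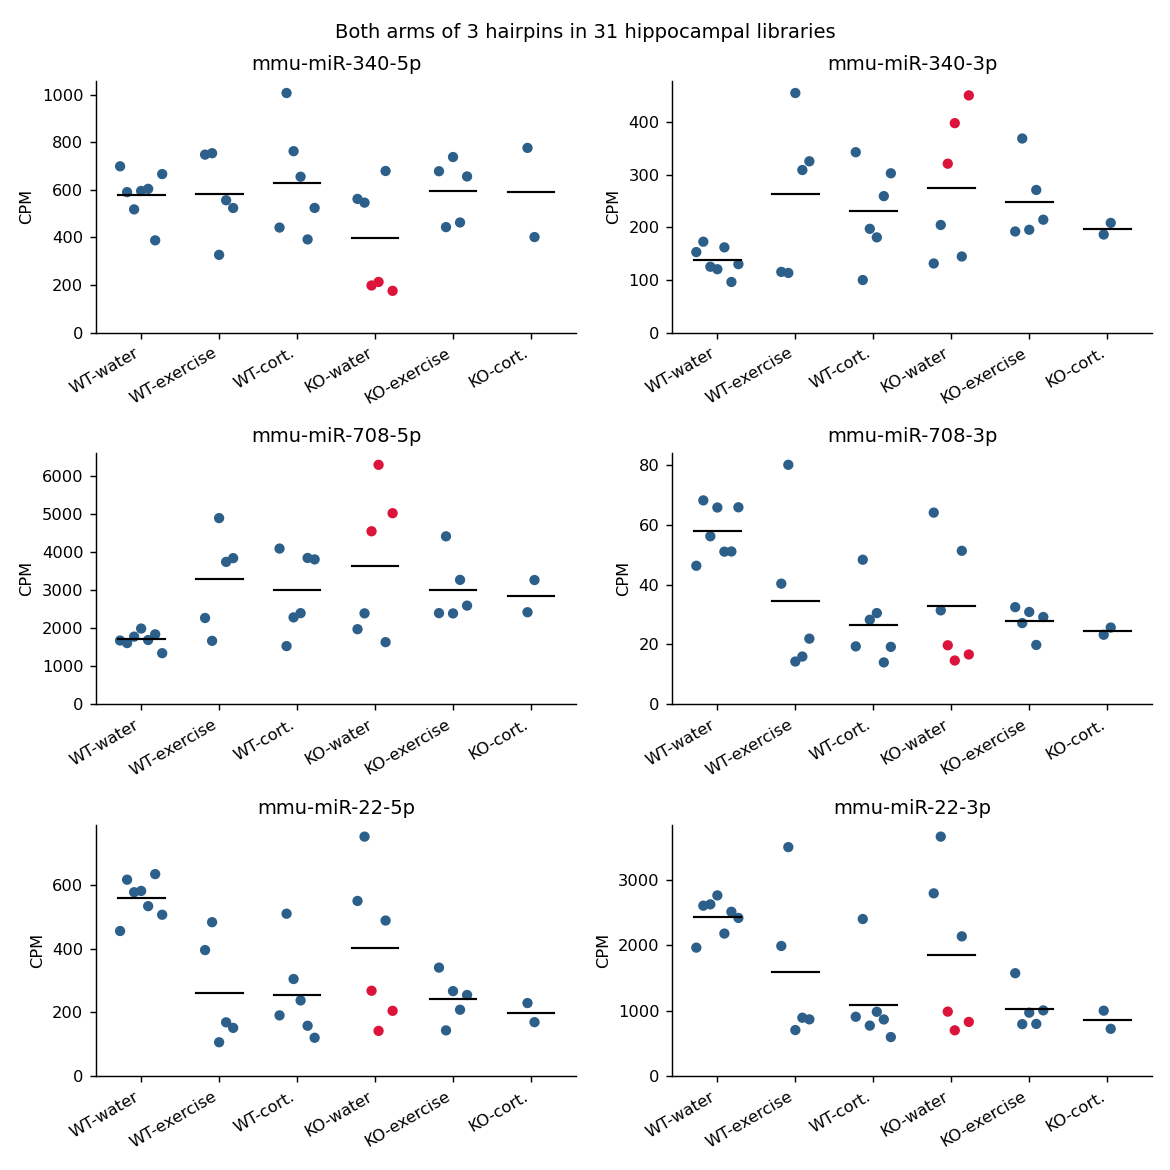
Level of each of the 6 members in CPM (y axis, linear, from 0) in every library, grouped on the x axis; horizontal bars are group means and red points are the 3 KO-water libraries of the deposited genotype table. WT-water libraries lie close together, while WT-exercise, WT-corticosterone and KO-water spread widely, with both arms of miR-22 low where miR-708-5p is high. KO-exercise and KO-corticosterone spread less than WT-water for miR-708-3p.

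The arm ratio, log2 of 5p counts over 3p counts within 1 library, set the hairpins apart. For miR-340 it ran from -1.36 (KO-water 6) to 3.33 (WT-corticosterone 2), so that the 3p arm exceeded the 5p arm in 4 libraries, WT-exercise 3 and KO-water 3, 4 and 6. The sum of both miR-340 arms moved less, from 484 to 1107 CPM. For miR-708 the ratio ran from 4.35 (WT-water 7) to 8.71 (KO-water 4), with the 5p arm dominant in all libraries. For miR-22 it stayed between -2.86 (WT-exercise 2) and -1.34 (WT-corticosterone 3), while the sum of its arms ranged from 719 to 4413 CPM. Some of these extremes are KO-water values, which chose the members. Outside KO-water, the SD of the log2 sum of the miR-22 arms exceeded that of its ratio in every group (WT-exercise 0.97 and 0.22). For miR-340 the SD of the ratio was larger than that of the log2 sum in every treated group (WT-exercise 1.39 and 0.06). In WT-water it was the smaller (0.21 and 0.27).

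In the 7 WT-water libraries the miR-340 ratio was 1.77 at the lowest, 2.05 at the median and 2.36 at the highest, that of miR-708 was 4.35, 4.98 and 5.18, and that of miR-22 was -2.25, -2.11 and -1.99. In WT-exercise 1 to 5 the miR-340 ratio was 2.69, 2.73, -0.48, 0.85 and 0.69, and the miR-708 ratio was 5.81, 4.38, 8.38, 7.85 and 7.44. Libraries 1 and 2 were high for miR-340 and low for miR-708, and libraries 3, 4 and 5 the reverse. In KO-exercise 1 to 5 the miR-340 ratio was 1.82, 0.26, 1.91, 0.77 and 1.61, and the miR-708 ratio was 6.20, 7.32, 6.26, 7.34 and 6.47. Again the libraries low for miR-340, numbers 2 and 4, were high for miR-708.

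WT-corticosterone libraries had miR-340 ratios from 0.36 through a median of 1.32 to 3.33, and miR-708 ratios from 4.98 through 6.97 to 8.08. KO-corticosterone 1 and 2 had miR-340 ratios of 2.06 and 0.94 and miR-708 ratios of 6.69 and 6.98. Expressed as the share of the 5p arm in both arms, miR-340 averaged 80.8% ± 2.29 in WT-water and 68.3% ± 19.0 in WT-exercise, miR-708 averaged 96.7% ± 0.75 and 98.5% ± 1.80, and miR-22 averaged 18.6% ± 1.11 and 14.5% ± 1.87. Taking group means out, the SD of the ratio over the 25 libraries outside KO-water was 0.92 for miR-340, 0.99 for miR-708 and 0.25 for miR-22, ranks 7, 4 and 118 from the largest among 136 hairpins whose median SD was 0.44.

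**Figure D2:**
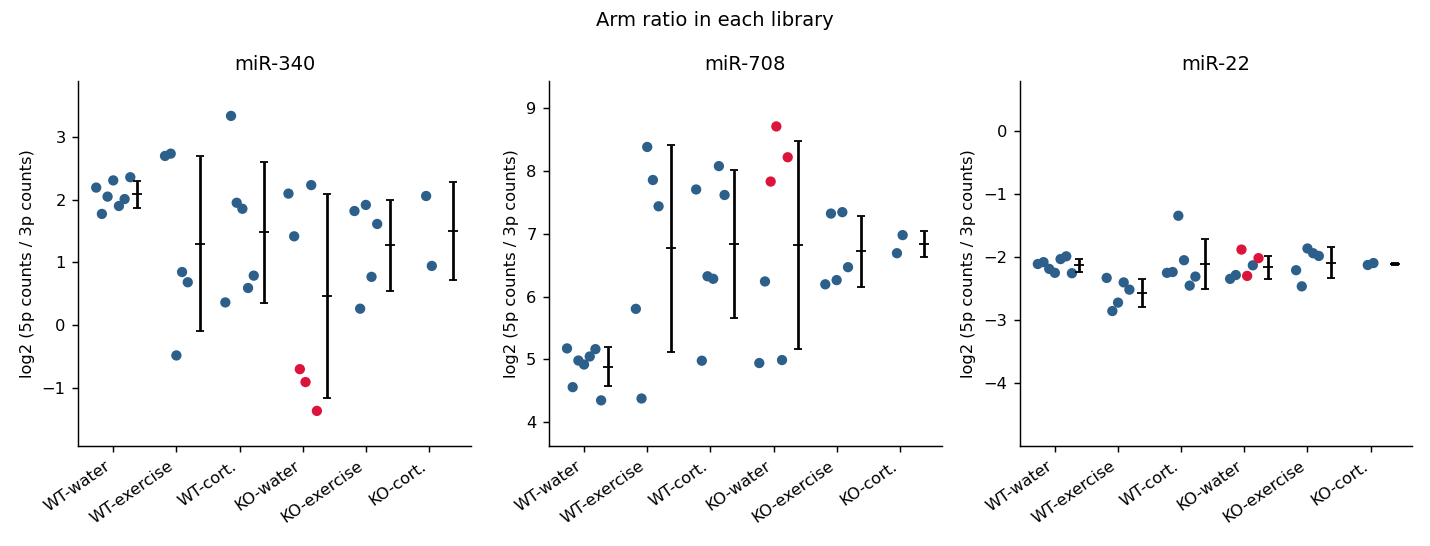
Arm ratio of the 3 hairpins, log2 of 5p counts over 3p counts (y axis, the same span of units in each panel), in every library by group; black bars are the group mean ± SD and red points are the 3 KO-water libraries of the deposited genotype table. The miR-340 ratio spreads more in every other group than in WT-water, and the miR-708 ratio in every other group but KO-corticosterone. That of miR-22 stays between -2.86 and -1.34.

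Exercise was compared with water in WT mice; the labels do not say which form of exercise was given. Of the 6 members, 2 rose, miR-340-3p and miR-708-5p, and 1 fell, miR-22-5p; the 3 other arms did not pass the test. Over all microRNAs, 180 of 553 tested were called at an adjusted p below 0.05 (32.5%), 110 higher and 70 lower, with edgeR's quasi-likelihood test and Benjamini-Hochberg adjustment. Without scaling factors between libraries the split was 78 higher and 85 lower. Calls were thus common outside the members too.

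In WT-exercise 1 to 5 miR-340-3p was at 115, 113, 455, 309 and 326 CPM, against 96.2 to 173 CPM in WT-water. Libraries 3, 4 and 5 lay above all WT-water libraries and libraries 1 and 2 lay among them. Its log2 fold change was 0.98 (SE 0.31, edgeR adjusted p = 0.0276). miR-340-5p, at 748, 754, 327, 556 and 524 CPM, had a log2 fold change of 0.03 (SE 0.20, edgeR adjusted p = 0.914), and -0.07 without scaling factors. In libraries 3, 4 and 5 the 3p arm was above the WT-water range, while the 5p arm was within it (4 and 5) or below it (3).

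miR-708-5p was at 2271, 1671, 4898, 3746 and 3845 CPM in WT-exercise 1 to 5, against 1346 to 1994 CPM in WT-water, a log2 fold change of 0.98 (SE 0.23, edgeR adjusted p = 0.00667). miR-708-3p was at 40.3, 80.0, 14.3, 16.0 and 21.9 CPM, against 46.3 to 68.1 CPM, a log2 fold change of -0.73 (SE 0.35, edgeR adjusted p = 0.114). The 3p arm was below all WT-water libraries in 4 of the 5 and above them in library 2. The seed relative miR-28a-5p had a log2 fold change of -0.52 (SE 0.24, edgeR adjusted p = 0.101), opposite in sign to miR-708-5p.

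miR-22-5p was at 396, 483, 107, 169 and 152 CPM, against 456 to 634 CPM in WT-water, and fell by 1.08 on the log2 scale (SE 0.31, edgeR adjusted p = 0.0174). miR-22-3p was at 1990, 3501, 705, 893 and 868 CPM, against 1965 to 2763 CPM, with a log2 fold change of -0.61 (SE 0.32, edgeR adjusted p = 0.154). Both arms were at their lowest in libraries 3, 4 and 5. Leaving out WT-exercise 2 brought miR-708-3p (-1.28) and miR-22-3p (-1.09) past the threshold. Leaving out WT-water 6 (0.92) or WT-exercise 3 (0.74), 4 (0.91) or 5 (0.89) ended the call of miR-340-3p, and leaving out WT-exercise 4 (-0.97) or 5 (-0.95) ended that of miR-22-5p.

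The arm ratio was tested directly, with a term for each library that cancels its scaling, and 62 of 175 hairpins were called (35.4%). The miR-708 ratio rose by 1.83 (SE 0.57, edgeR adjusted p = 0.0275) towards the 5p arm, higher than every WT-water library in 4 of 5 exercise libraries. The miR-22 ratio fell by 0.44 (SE 0.13, edgeR adjusted p = 0.0256), from -2.13 ± 0.11 (SD, n = 7) to -2.56 ± 0.22 (n = 5), and the groups did not overlap. For the miR-340 ratio the difference was -0.80 (SE 0.48, edgeR adjusted p = 0.207), which does not pass. The largest evidence in each direction came from other hairpins, miR-139 towards 5p by 1.49 (SE 0.24) and miR-199b towards 3p (change of -1.79, SE 0.30), both with an edgeR adjusted p of 0.00282.

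These calls were close to the threshold. The miR-708 ratio lost its call without WT-water 7 (1.75) or WT-exercise 3 (1.44), 4 (1.51) or 5 (1.62), and that of miR-22 without WT-water 5 (-0.42) or WT-exercise 3 (-0.40) or 5 (-0.45). The miR-340 ratio gained one without WT-exercise 2 (-1.18). Sample codes begin with G or H, a letter whose meaning is not stated. Within G, with 3 exercise and 5 water libraries, no member level was called: the log2 fold change was 0.70 for miR-340-3p (edgeR adjusted p = 0.387), 0.80 for miR-708-5p (0.247) and -0.73 for miR-22-5p (0.318). Within H, with 2 libraries of each group, those 3 arms were called at 1.57, 1.34 and -1.74. So were miR-708-3p (-1.55) and miR-22-3p (-1.40). Over all microRNAs, 210 of 554 were called within H (37.9%), and 1.74% within G. The share of all microRNAs called moved as well, to 48.8% without WT-exercise 2 and to 20.1%, 19.4% and 18.4% without 3, 4 or 5. That of hairpins fell to 23.7% without WT-water 5 and to 18.9%, 13.2% and 10.9% without WT-exercise 3, 4 or 5.

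Corticosterone was compared with water in WT mice, and this comparison shares its WT-water libraries with the one above. Of the 6 members, 5 passed the test: miR-340-3p and miR-708-5p rose, and miR-708-3p and both arms of miR-22 fell. Over all microRNAs 229 of 547 were called (41.9%), 93 of them lower and the rest higher, and without scaling factors 101 of 224 calls were higher. Both arms of miR-708 were thus called in opposite directions, which held for 11 of 168 hairpins with both arms tested, and both arms of miR-22 in the same direction, which held for 23.

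miR-340-3p ranged from 99.9 through a median of 228 to 343 CPM in WT-corticosterone, with a log2 fold change of 0.82 (SE 0.24, edgeR adjusted p = 0.0146). miR-340-5p, from 391.6 through 590 to 1007 CPM, had a log2 fold change of 0.16 (SE 0.19, edgeR adjusted p = 0.531). As with exercise, the call fell on the 3p arm, the less abundant arm of this hairpin. Its 5p arm spread from near the lowest WT-water value to above the highest.

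miR-708-5p ranged from 1532 through 3105 to 4097 CPM, a log2 fold change of 0.89 (SE 0.21, edgeR adjusted p = 0.00364). miR-708-3p ranged from 14.0 through 23.8 to 48.3 CPM and fell by 1.07 on the log2 scale (SE 0.22, edgeR adjusted p = 0.00154). In each arm the groups overlapped by WT-corticosterone 2, which stood at 1532 and 48.3 CPM. miR-28a-5p, with the seed of miR-708-5p, fell by 0.85 (SE 0.14, edgeR adjusted p = 0.000342), from 101 ± 13.5 to 54.2 ± 9.17 CPM, and its groups did not overlap.

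miR-22-5p ranged from 121 through 214 to 510 CPM and fell by 1.10 on the log2 scale (SE 0.24, edgeR adjusted p = 0.00204). miR-22-3p ranged from 598 through 887 to 2402 CPM and fell by 1.13 (SE 0.23, edgeR adjusted p = 0.00154). The highest value of each belonged to WT-corticosterone 2, the only library of its group within the WT-water range. In the other 5 both arms lay below every WT-water library.

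For arm ratios, 63 of 169 hairpins were called after corticosterone (37.3%). The miR-708 ratio rose by 1.91 (SE 0.41, edgeR adjusted p = 0.00235), with 5 of 6 libraries above every WT-water library. The difference was 0.02 (SE 0.17, edgeR adjusted p = 0.934) for the miR-22 ratio and -0.63 (SE 0.38, edgeR adjusted p = 0.203) for the miR-340 ratio, and neither passed. Within code letter G, with 5 libraries of each group, the levels of miR-340-3p (0.55, edgeR adjusted p = 0.153) and miR-708-5p (0.68, 0.0547) were not called, and miR-708-3p (-1.05) and both arms of miR-22 (-1.003 and -1.058) were. Over all microRNAs 25.2% were called within G. Without WT-corticosterone 2 the miR-340 ratio difference was -0.98 and passed. The hairpins with the smallest p in each direction were miR-497a, towards 5p by 1.78 (SE 0.18), and miR-342, with a log2 change of -1.46 (SE 0.15), both with an edgeR adjusted p of 4.80e-06.

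Side by side, the ratio difference from WT-water was 1.83 with exercise and 1.91 with corticosterone for miR-708, -0.44 and 0.02 for miR-22, and -0.80 and -0.63 for miR-340; whether the treatments differ was not tested. Among 18 tested hairpins of a fixed list of 20 comparator hairpins, 3 ratios were higher and 4 lower with exercise. The median change of the 18 was -0.03, against 0.01 over all hairpins. With corticosterone 3 were higher and 3 lower (median 0.15, against -0.07). In that list miR-338, made in the oligodendrocyte lineage, moved towards 5p by 1.64 (SE 0.44) and 1.57 (SE 0.34), about as far as miR-708, and miR-181c towards 3p, with changes of -1.05 (SE 0.26) and -1.11 (SE 0.20).

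Knockout was compared with wildtype within each treatment. With exercise none of the 6 members passed, nor did any of 517 microRNAs (0.0%) with edgeR or DESeq2, and 5 had an unadjusted edgeR p below 0.05. The members' log2 fold changes ran from -0.62 (SE 0.43) for miR-22-3p to 0.05 (SE 0.25) for miR-340-5p. No arm ratio of 159 hairpins passed either (0.0%) with edgeR or limma, and 4 had an unadjusted edgeR p below 0.05. Of these the miR-22 ratio was 1, higher in KO-exercise by 0.48 (SE 0.19, edgeR adjusted p = 1.00), at -2.21, -2.46, -1.86, -1.94 and -1.98 in KO-exercise 1 to 5 against -2.33, -2.86, -2.72, -2.40 and -2.52 in WT-exercise 1 to 5. Changes of the other ratios were -0.003 (SE 0.61) for miR-340 and -0.04 (SE 0.70) for miR-708.

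With corticosterone, where only 2 KO libraries were counted, none of the members passed, nor did any of 552 microRNAs (0.0%) with edgeR or DESeq2; 9 had an unadjusted edgeR p below 0.05. No ratio of 158 hairpins passed (0.0%) with edgeR or limma, and 2 had an unadjusted edgeR p below 0.05. Ratio changes were 0.05 (SE 0.73) for miR-340, 0.02 (SE 0.75) for miR-708 and -0.001 (SE 0.31) for miR-22. At these SEs a difference of 1 log2 unit in the miR-340 or miR-708 ratio could not be told from 0. The 2 KO-corticosterone libraries were both coded H, against 5 coded G and 1 coded H in WT-corticosterone. Genotype and code letter can thus hardly be told apart in this comparison.

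Whether arms move together was then measured over the 25 libraries outside KO-water, after removing group means from log2 CPM. The arms of miR-708 and of miR-340 went opposite ways and those of miR-22 the same way. Pearson's r was -0.85 for miR-708 (Spearman's rho -0.81; permutation test within groups, two-sided, adjusted p = 0.000486 and 0.00204), -0.68 for miR-340 (rho -0.64; permutation adjusted p = 0.00245 and 0.00668) and 0.91 for miR-22 (rho 0.83; permutation adjusted p = 0.00016 and 0.000737). The unadjusted permutation p of r was 0.0001, 0.00083 and 2e-05. Of 136 hairpins, 74 were called (54.4%), 60 positive and 14 negative, and the median r was 0.42. miR-708 had the lowest r of the 136, miR-340 ranked 130 from the highest and miR-22 ranked 9.

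Without the 2 libraries farthest from the median of the 5p arm, r was -0.75 for miR-708, -0.53 for miR-340 and 0.87 for miR-22. In the 18 treated libraries it was -0.88, -0.84 and 0.91. In the 7 WT-water libraries, with their narrow spread, it was -0.23 for miR-708, 0.72 for miR-340 and 0.81 for miR-22, so the opposite movement of the miR-340 arms was not seen there. Within the 16 libraries coded G r was -0.87, -0.89 and 0.90, and within the 9 coded H it was -0.47, 0.01 and 0.88. The 16 possible orderings of those coded H cannot give a two-sided p below 0.05.

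**Figure D3:**
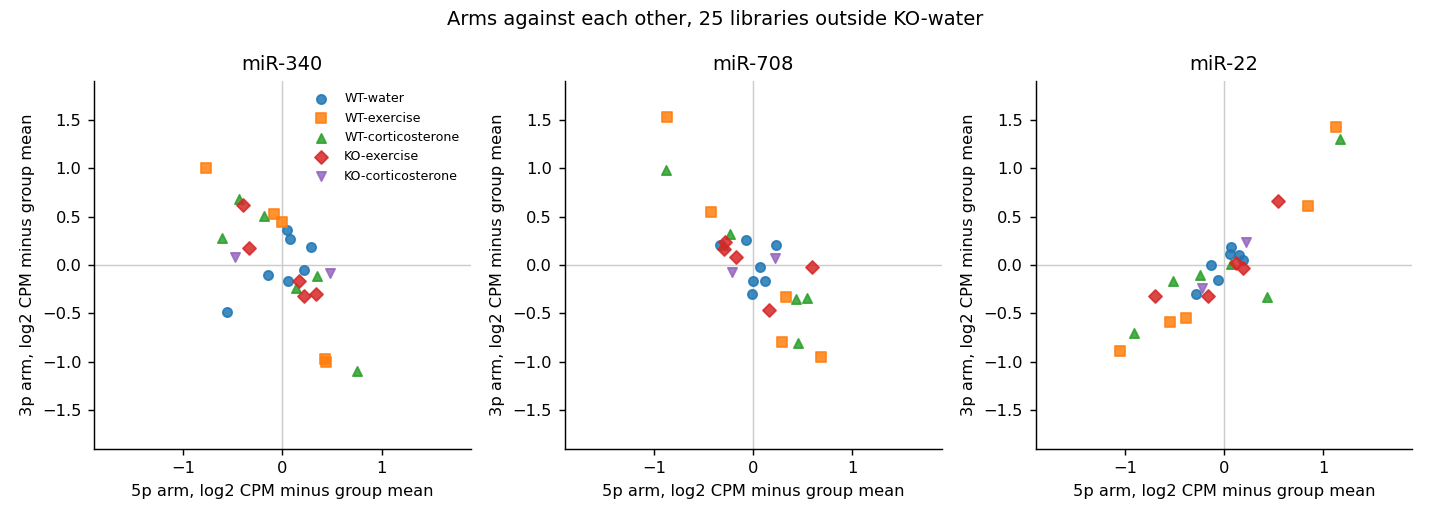
Each point is 1 of the 25 libraries outside KO-water: x axis, log2 CPM of the 5p arm minus its group mean; y axis, the same for the 3p arm; symbols give the group. Points fall from left to right for miR-340 (r = -0.68) and miR-708 (r = -0.85) and rise for miR-22 (r = 0.91), and WT-water points stay near the centre.

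**Figure D4:**
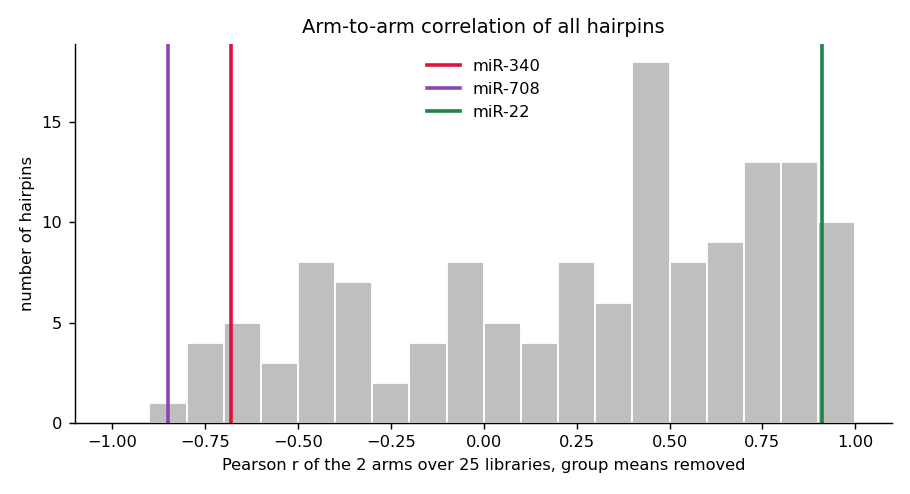
Number of hairpins (y axis) by Pearson r of their arms over 25 libraries with group means removed (x axis, bins of 0.1), for 136 hairpins; coloured lines mark the 3 hairpins. Most hairpins lie above 0, miR-708 lies at the lowest value and miR-340 near it, and miR-22 lies near the upper end.

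Between hairpins, the arms formed 2 sets that moved against each other. miR-708-5p and miR-340-3p varied together (r = 0.88), and both varied against miR-22-5p (r = -0.91 and -0.92). miR-340-5p and miR-708-3p varied with each other (r = 0.70) and with miR-22-5p (r = 0.74 and 0.85). These correlations are over the same 25 libraries, share their libraries and scaling, and are given without a test.

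The partner arm was far from the nearest neighbour of either divergent hairpin. Among 463 other microRNAs at a mean of at least 10 CPM, ordered by r with the member, miR-708-3p had its partner at place 462 and miR-708-5p at 428; miR-340-5p had it at 405 and miR-340-3p at 369. miR-22-3p had its partner at place 7 and miR-22-5p at 12. Most like miR-708-5p were miR-425-5p (r = 0.95), miR-421-3p (0.94) and miR-671-5p (0.93), and least like it miR-136-3p (-0.94). miR-340-3p was most like miR-421-3p (0.93), miR-150-5p (0.92) and miR-194-5p (0.92), and least like miR-22-5p (-0.92). A lymphocyte microRNA, miR-150-5p, was the least like miR-708-3p (-0.87), miR-22-5p (-0.96) and miR-22-3p (-0.91).

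For the remaining arms, miR-340-5p was most like miR-9-5p (r = 0.93), miR-381-3p (0.92) and miR-7a-5p (0.90), of which miR-9-5p is neuron-enriched, and least like miR-378a-3p (-0.92). miR-708-3p was most like miR-362-3p (0.94), miR-540-5p (0.93) and miR-136-3p (0.91). miR-22-5p was most like miR-181c-5p (0.96), miR-127-5p (0.94) and miR-382-3p (0.94), and miR-22-3p most like miR-339-5p (0.93), miR-500-3p (0.93) and miR-362-3p (0.92).

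Libraries of 1 group differed along 1 main axis, the first principal component of 458 other microRNAs with group means removed, which held 44.3% of the variance within groups. The miR-340 ratio fell along it (r = -0.95, rho -0.95, permutation adjusted p = 9.7e-05 and 0.00034) and the miR-708 ratio rose (r = 0.93, rho 0.87, permutation adjusted p = 9.7e-05 and 0.000648). For miR-22 r was -0.23 (rho -0.30, permutation adjusted p = 0.461 and 0.318). The unadjusted permutation p of r was 1e-05 for both miR-340 and miR-708, the smallest that the draws can give, and 0.393 for miR-22. Ratios of 69 of 136 hairpins were called along the axis (50.7%), 36 rising and 33 falling, so such a relation was common. The members' arms were left out of the axis, while those of the other hairpins helped build it. This share is thus not like for like with the members' r. Without the 2 libraries farthest from the axis median, WT-corticosterone 2 and WT-exercise 2, r was -0.94, 0.89 and -0.53.

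For subsets of libraries the axis was rebuilt from the subset alone, so the next values do not refer to the axis above. Within code letter G r with the rebuilt axis was -0.97 for miR-340, 0.95 for miR-708 and -0.36 for miR-22. Within H it was -0.94, 0.62 and 0.46, and in the 7 WT-water libraries -0.65, 0.22 and 0.73. On the axis of the 25 libraries outside KO-water, scores of WT-water libraries ran from -1.47 to 1.68. Those of WT-exercise ran from -13.4 to 10.6. The log2 library total had an r of -0.29 with that axis.

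**Figure D5:**
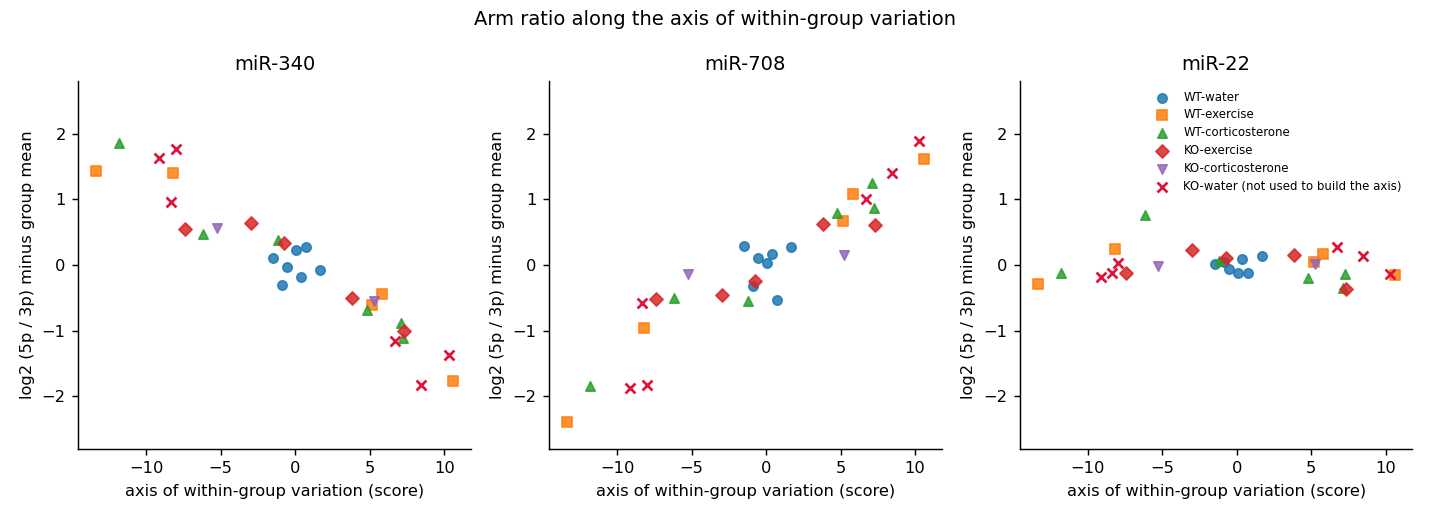
Arm ratio minus its group mean (y axis, log2 units) against the score of each library on the main axis of within-group variation (x axis), by group; crosses are KO-water libraries, which were not used to build the axis. The miR-340 ratio falls and the miR-708 ratio rises along the axis. For miR-22 r over the 25 libraries outside KO-water is -0.23, not called. It is -0.53 without the 2 libraries farthest from the axis median.

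Summed microRNA markers of cell types were set against the same axis, which left out the members and microRNAs below a mean of 10 CPM. Markers at a mean of at least 10 CPM helped build it, so their r with it is in part built in. The summed level of 2 oligodendrocyte markers, miR-219a-5p and miR-338-3p, had an r of -0.97 with it, and that of 4 microglia and leukocyte markers (miR-223-3p, both miR-142a arms, miR-150-5p) had an r of 0.92. For the other lists r was -0.56 (4 neuron), 0.59 (4 vessel), -0.80 (3 red blood cell), 0.42 (3 choroid plexus), -0.80 (3 muscle) and -0.14 (1 liver). No marker was at 0 in all libraries.

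Summed oligodendrocyte markers ranged from 4799 to 6259 CPM in WT-water, 1045 to 6042 in WT-exercise, 1123 to 5396 in WT-corticosterone, 1227 to 3562 in KO-exercise, 1160 to 2241 in KO-corticosterone and 857 to 5102 in KO-water. Summed microglia and leukocyte markers ranged from 2290 to 3281 CPM in WT-water, 2493 to 10789 in WT-exercise, 2568 to 8170 in WT-corticosterone, 3583 to 7104 in KO-exercise, 4393 to 6207 in KO-corticosterone and 2368 to 8959 in KO-water. Of the 4 microglia and leukocyte markers 3 rose with exercise and 4 with corticosterone, where 32.5% and 41.9% of all microRNAs were called in either direction. Of the 2 oligodendrocyte markers 1 fell in each, of the 4 vessel markers 2 rose in each, and of the 3 choroid plexus markers 1 rose in each. Of the 4 neuron and of the 3 red blood cell markers, 1 fell with exercise, and 1 rose and 1 fell with corticosterone. The liver marker rose with corticosterone and was not called with exercise, and of the 3 muscle markers 0 were called in either comparison with edgeR. The part of these cell types in the members' changes was not tested.

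With group means kept in the score, WT-water libraries lay together at -7.37 to -4.23 and treated libraries spread from -12.1 to 11.9. With that score as a covariate, an alternative added after seeing the data, the miR-340-3p change was 0.12 with exercise and 0.05 with corticosterone and no longer called in either. The miR-708 ratio change was 0.75 with exercise, still called, and 0.69 with corticosterone, not called. The miR-340 ratio change became 0.15 and 0.60, opposite in sign to the values without the covariate and not called. In the same fits miR-708-5p (0.12) and miR-708-3p (-0.57) lost their calls with corticosterone, and miR-340-5p (0.63) gained one. Other level calls remained at smaller changes. These were miR-708-5p with exercise at 0.41, miR-22-5p at -0.70 with exercise and -0.56 with corticosterone, and miR-22-3p with corticosterone at -0.70. The miR-22 ratio with exercise stayed called at -0.47, against -0.44 without the covariate.

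The KO-water libraries chose the members and are described last, without a test. The deposited table of KO-water and WT-water holds KO-water 3, 4 and 6, and KO-water 1, 2 and 5 are outside it. miR-340-5p was at 198, 213 and 175 CPM in the first 3 and at 562, 546 and 679 CPM in the others, and miR-340-3p at 321, 398 and 451 against 131, 205 and 144.6 CPM. The arms crossed over, so that the 3p arm was the more abundant in KO-water 3, 4 and 6.

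miR-708-5p was at 4551, 6298 and 5026 CPM against 1977, 2393 and 1636 CPM, and miR-708-3p at 19.7, 14.6 and 16.7 against 64.0, 31.4 and 51.3 CPM. miR-22-5p was at 268, 142 and 205 against 550, 752 and 488 CPM, and miR-22-3p at 987, 701 and 830 against 2794, 3661 and 2137 CPM. None of the 6 arms overlapped between the 2 sets of libraries, as was so for 66.8% of microRNAs at a mean of at least 10 CPM. Ratio differences were -2.91 for miR-340, 2.88 for miR-708 and 0.19 for miR-22, and 4.9%, 5.5% and 88.3% of hairpins had a larger one.

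Opposite changes of more than 2-fold in each arm were seen for 12 of 161 hairpins between these sets (7.45%), among them miR-134, miR-191, miR-330, miR-338 and miR-505 besides miR-340 and miR-708. On the axis, with the KO-water mean removed, KO-water 3, 4 and 6 scored 6.73, 10.3 and 8.47. KO-water 1, 2 and 5 scored -9.14, -8.36 and -7.99. With group means kept, KO-water 3, 4 and 6 scored 9.91, 13.5 and 11.6, above every WT-water library. KO-water 1, 2 and 5 then scored -5.97, -5.18 and -4.82, within the WT-water range of -7.37 to -4.23. Oligodendrocyte markers summed to 857 to 1204 CPM in the first set and 3942 to 5102 CPM in the second, and microglia and leukocyte markers to 6706 to 8959 and 2368 to 3043 CPM. Taken as 1 group, KO-water differed from WT-water in its ratios by -1.62 (miR-340), 1.86 (miR-708) and -0.03 (miR-22), with SDs of 1.63, 1.66 and 0.18 within KO-water against 0.21, 0.31 and 0.11 within WT-water.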

How the data were processed

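Per the labels' protocols, small RNA was made into Ion Total RNA-Seq Kit v2 libraries and read on an Ion Torrent S5. The authors deposited 5 tables of raw counts per mature microRNA; cutadapt 2.3, BWA, Subread, featureCounts, limma 3.54.1 and build GRCm38 (mm10) are named without order in the submitters' processing notes. Whether counting used strand is not stated there. Libraries in several tables had identical counts (24 repeat columns compared, 0 differed). One column of the KO-water and WT-water table belongs to KO-exercise 4 by the labels and was treated as such.

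Levels were fitted with edgeR 4.0.16 (filterByExpr, TMM, robust glmQLFit, Benjamini-Hochberg over all microRNAs tested), and arm ratios with 2 columns per library, library intercepts and an arm-by-group term, over hairpins with a mean count of at least 10 in each arm. Printed ratios add 0.5 to each count. SEs come from the F statistic. Correlations used log2 CPM (prior count 1), microRNAs at a mean of at least 10 CPM and 100000 permutations within groups (scipy 1.17.1). Scripts were tested on simulated data. DESeq2 1.42.0 and limma 3.58.1 were alternatives, as were other scalings and filters, the code letter, the axis and the replicate block. Replicate numbers did not pair the samples: at most 2 of 5 pairs correlated above 0.1. Named microRNAs are the members, seed relatives and the 3 most and the 1 least correlated microRNAs. Named hairpins are those with the smallest p in each direction and some of a fixed list of comparator hairpins. Members, lists and tests were chosen with earlier results of these data known.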

Additional observations from a re-analysis of the deposited data

Results flagged for a closer look

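Each of the 6 levels and 3 ratios was checked in each of the 4 groups of 4 to 10 libraries outside KO-water, 36 sets of values, for 1 library standing far from the others of its group by Dixon's criterion at 95%, which chance meets in about 1 in 20 sets. It was met 3 times. miR-22-3p stood at 2402 CPM in WT-corticosterone 2, where the next highest library had 984 CPM. The miR-22 arm ratio was -1.34 in WT-corticosterone 3, next to -2.05. miR-22-3p stood at 1574 CPM in KO-exercise 1, next to 1005 CPM.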

How the results depend on the processing

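In WT-exercise against WT-water the replicate block, on numbers that do not pair the samples, left 38 called microRNAs (6.87% of those tested) and 4 hairpins (2.29%) and ended the calls of the miR-708 ratio (1.79) and the miR-22 ratio (-0.44); in the other comparisons it moved no count by over 1.5 times, and of the single members it ended the calls of miR-340-3p in both treatments and of miR-708-5p and miR-22-5p with exercise. The axis score with group means at 0 as a covariate gave 274 microRNAs (49.5%) with exercise and brought the miR-340 ratio past the threshold (-0.78 with exercise, -0.60 with corticosterone); with exercise it also moved the estimates of miR-708-3p (-1.02) and miR-22-3p (-0.87), both then called, and of miR-340-3p (0.75). The score with group means kept gave 93 microRNAs (16.8%) and 28 hairpins (16%) with exercise and 78 (14.3%) and 21 (12.4%) with corticosterone, with the miR-708 ratio at 0.69. A mean count of at least 1 in each arm left the miR-22 ratio with exercise at -0.44, not called. Within code letter G exercise gave 10 microRNAs (1.74%), 3 hairpins (1.71%), a miR-708 ratio of 1.07 and a miR-22 ratio of -0.51, neither called. Within H 210 microRNAs (37.9%) and 49 hairpins (29.0%) were called, among them the miR-340 ratio (-1.42) and not that of miR-22 (-0.34). With corticosterone the letters gave 135 (25.2%, G) and 127 (21.1%, H) microRNAs, and H gave 0 hairpins with edgeR and a miR-708 ratio of 2.88, from 1 treated library assumed to vary like the others. Arm correlations within H were 0.012 (miR-340, turned in sign), -0.47 (miR-708) and 0.88 (miR-22) with 0 hairpins called by the permutation test. Arm ratios against an axis rebuilt within H gave -0.94 (miR-340) and 0.62 (miR-708), with 0 called. The 9 libraries coded H cannot reach the threshold. In the 7 WT-water libraries the arm correlations were 0.72 (miR-340, turned in sign), -0.23 and 0.81, with 11 hairpins called. Ratios against an axis rebuilt from those 7 gave -0.65 and 0.22, with 2 called.

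Leaving out 1 library at a time gave calls for 18.4% to 48.8% of microRNAs and 10.9% to 45.1% of hairpins with exercise, and 31.3% to 52.4% and 30.2% to 50.3% with corticosterone. Ratio changes with exercise ranged from 1.44 to 2.43 (miR-708), -0.50 to -0.36 (miR-22) and -1.18 to -0.36 (miR-340), and with corticosterone from 1.67 to 2.31, -0.13 to 0.09 and -0.98 to -0.40. Knockout comparisons gave 0 calls with edgeR each time.

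Of 942 recomputed values, 862 kept their side of the threshold, or a count within 1.5 times, but 97 of these, past the threshold in neither fit, had the opposite sign, among them the miR-340 ratio with the axis score that kept group means (0.15 and 0.60). Depth limits miR-708-3p most, with as few as 17 counts in a library.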
